A study of Mus musculus with 13 samples.

Results

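Axin2, Ascl2, Nkd1, Sp5, Notum, Lef1, Tcf7, Apcdd1 and Prox1 are 9 genes that Wnt signalling is known to switch on or that limit Wnt signalling in return. They were taken from a fixed list that was chosen with earlier results of these data known. Each was represented by its brightest probeset with a single gene symbol. Of the 9 genes 8 had such a probeset, among 18820 genes measured in all, and Tcf7, which had none, is named only. Levels are log2 intensities of Affymetrix gene arrays, so a difference of 1 is a doubling.

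The 13 arrays come from mouse stomach in 2 experiments. In the first, whole glands of the gastric corpus were freed from 10 Troy-EGFP-ires-CreERT2 mice per array, dissociated with trypsin, and sorted into Troy-positive chief cells (3 arrays) or Troy-positive parietal cells (2 arrays), about 100000 cells each. The cassette sits at the transcriptional start of Tnfrsf19, the gene of Troy, so that EGFP and CreERT2 follow the gene's own regulatory sequences, and Troy is a TNF receptor family member that is itself a Wnt target. Whole corpus glands processed directly, with no trypsin step or sort described, gave 2 reference arrays; the sources used here do not give their donors' genotype, or the age or sex of any mouse. The second experiment used organoids, each started from a Troy-positive chief cell and kept in EGFNWR medium (EGF, gastrin, FGF10, Noggin, Wnt3a and Rspondin; 3 arrays) or in ER medium with only EGF and Rspondin (3 arrays). ER medium thus lacks 4 factors at once, and the part of Wnt3a in a difference between media cannot be told apart from that of gastrin, FGF10 and Noggin. Organoids and tissue were separate experiments, so that culture and experiment cannot be told apart either, and levels across them are only described.

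Without a Wnt signal, a destruction complex built on Axin proteins marks beta-catenin for degradation. Wnt ligands such as Wnt3a, amplified by Rspondins that bind Lgr receptors, stop that complex, and beta-catenin then joins TCF/LEF factors on DNA and activates target genes. Many targets feed back. Axin2 rebuilds the destruction complex, Nkd1 binds Dishevelled inside the cell, Notum cuts the lipid from Wnt ligands outside it, and Apcdd1 is a membrane protein that binds ligand and receptor. Ascl2, Sp5, Lef1, Tcf7 and Prox1 are transcription factors. In gastric glands, chief cells at the gland base secrete pepsinogen and parietal cells secrete acid, and Wnt targets such as Lgr5 and Troy mark cells of the gland base.

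TCF/LEF factors bind short DNA words. For that reason the stretches just before an annotated start are shown for 3 of the 4 genes that moved together in the organoids. Promoter entries of 7 of the 9 genes were taken from the RefSeq table (build GRCm38.p6), and none was taken for Notum or Apcdd1. The 250 bases before the annotated start were searched on both strands for 4 spellings of the TCF/LEF word. They were CTTTGAA, the variant spelled CTTTGAT, the variant spelled CTTTGTA and the variant spelled CTTTGTT. A match is printed in capitals, read 5′ to 3′ on the gene's strand.
Sp5: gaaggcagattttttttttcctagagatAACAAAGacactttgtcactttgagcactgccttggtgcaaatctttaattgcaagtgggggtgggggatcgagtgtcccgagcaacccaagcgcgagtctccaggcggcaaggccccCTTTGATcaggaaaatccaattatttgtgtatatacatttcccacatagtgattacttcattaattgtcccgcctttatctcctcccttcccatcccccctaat
Ascl2: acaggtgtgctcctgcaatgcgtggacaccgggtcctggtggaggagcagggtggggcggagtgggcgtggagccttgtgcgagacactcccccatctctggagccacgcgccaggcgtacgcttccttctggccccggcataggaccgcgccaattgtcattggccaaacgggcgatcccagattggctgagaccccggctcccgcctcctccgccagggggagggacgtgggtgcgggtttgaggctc
Axin2: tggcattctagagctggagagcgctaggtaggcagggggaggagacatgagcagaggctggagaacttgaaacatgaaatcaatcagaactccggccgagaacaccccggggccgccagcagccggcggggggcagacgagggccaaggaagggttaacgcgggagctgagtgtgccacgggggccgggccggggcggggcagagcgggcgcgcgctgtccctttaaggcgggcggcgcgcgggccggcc
These are chr2:70474673-70474922 on the plus strand for Sp5, chr7:142969265-142969514 on the minus strand for Ascl2 and chr11:108920099-108920348 on the plus strand for Axin2. The Axin2 window lies inside the annotated gene, which RefSeq starts at base 108917828. The windows of Nkd1 and Tcf7, the Lef1 window with a match and a Prox1 window also lie inside their annotated genes. Sp5 held 2 matches, CTTTGTT on the opposite strand from 222 to 216 bases before the start and CTTTGAT on the gene's strand from 104 to 98 bases before it. The windows of Ascl2, Axin2, Nkd1, Tcf7 and Prox1 held none, and 1 of 4 Lef1 windows held CTTTGTA. Of all 32851 RefSeq windows of this length, 14.8% held at least 1 match and 1.43% at least 2, and a match does not show binding.

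Before the results, some features of the arrays bear on dim genes and on the sort. Array medians lay between 5.01 and 5.30. As a reference for genes not thought to be active in stomach, a choice made after the values were seen, the 95th percentile of 995 olfactory receptor probesets was taken on each array. It was 4.47, 5.39 and 5.60 on chief arrays a, b and c and 4.97 and 5.24 on the parietal arrays, but 4.54 and 4.39 on the glands and between 4.37 and 4.57 on the organoids. The olfactory genes' median difference between sorted cells and glands was 0.43, with 0 of 979 called. A rise of that size in a dim gene of the sorted cells is therefore also seen in genes of no known role there. The mean of 10 chief cell markers was 9.37 to 9.52 in sorted chief and 9.04 to 9.05 in sorted parietal cells, and that of 16 parietal markers was 9.62 to 11.08 in chief and 11.26 to 11.37 in parietal cells, so each sort carried the other's markers. Chief array c correlated more closely with the parietal arrays (r = 0.979 and 0.982 over all probesets) than with chief a (0.950) and b (0.961). Chief a correlated more closely with glands a (0.978) and b (0.966) than with chief b (0.953) or c. In the organoids the chief list lay at 6.46 to 6.70 in EGFNWR and 5.03 to 5.97 in ER. In all these samples, fewer cells of a type and less RNA per cell cannot be told apart.

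**Figure D1:**
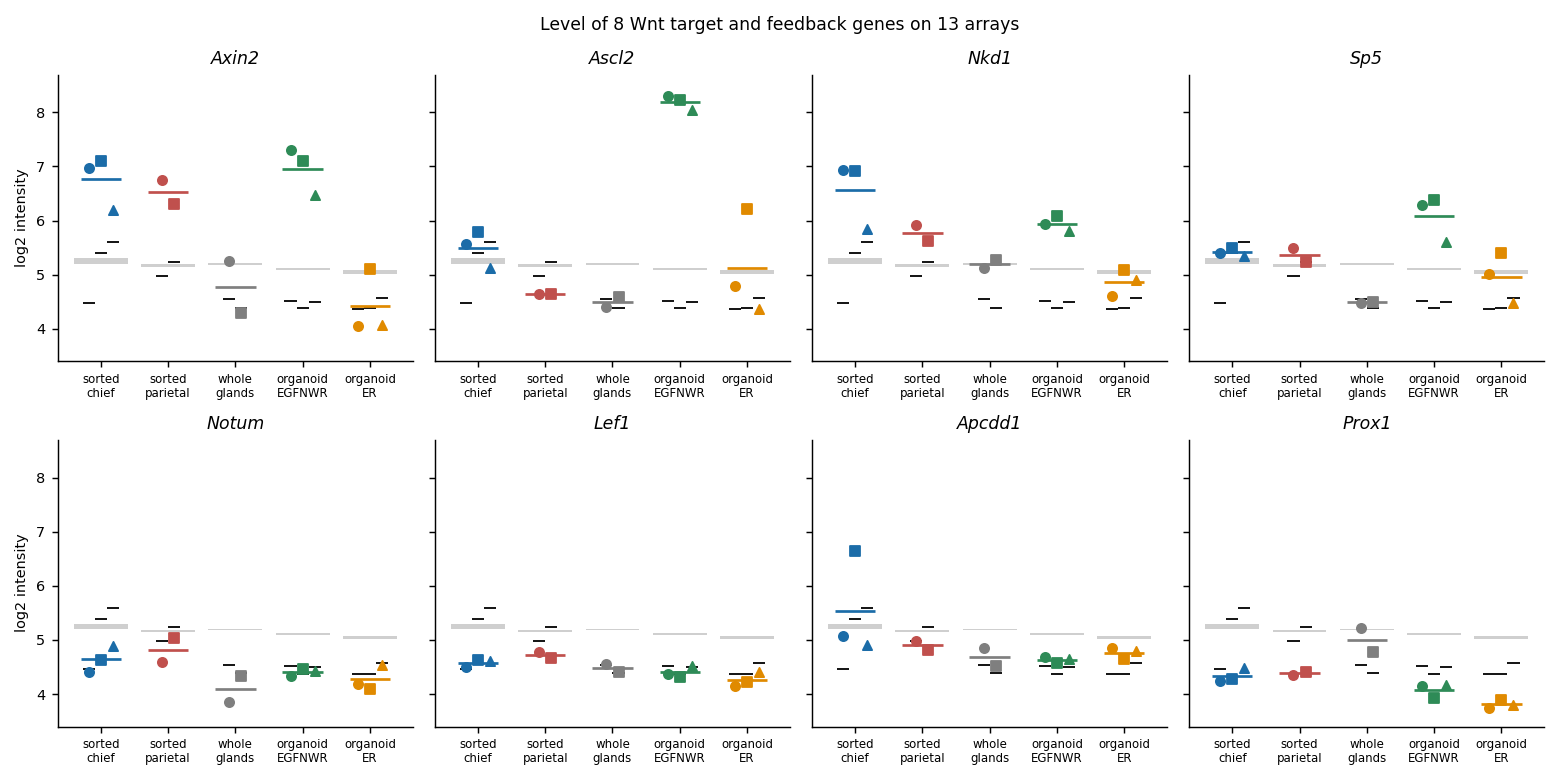
Log2 intensity of the 8 measured genes on 13 arrays, by group, with circle, square and triangle for replicates a, b and c. Coloured bars are group means, grey bands the range of array medians, and short black lines each array's 95th percentile of 995 olfactory receptor probesets. Axin2, Ascl2, Nkd1 and Sp5 drop from EGFNWR to ER organoids, while Notum and Lef1 stay below the array medians on all 13 arrays.

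The first question was how the genes differ between organoids with and without Wnt3a, Noggin, FGF10 and gastrin. Of the 8 measured genes, 4 were lower in ER medium by limma (adjusted p under 0.05 over all genes) and 0 were higher: the feedback genes Axin2 and Nkd1 and the transcription factors Ascl2 and Sp5. Over all 18820 genes 10.1% were lower and 9.14% higher. The median difference of the 8 genes was -0.68 and that of all genes 0.01. Notum, Lef1, Apcdd1 and Prox1 did not pass.

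Axin2, the scaffold that limits beta-catenin, was 7.30, 7.10 and 6.47 in EGFNWR arrays a, b and c and 4.06, 5.11 and 4.07 in the ER arrays. The groups did not overlap, and only ER b lay above its array's median. The difference was -2.54 (SE 0.32, 95% confidence interval -3.30 to -1.78, limma adjusted p = 0.00455). On ER a and c Axin2 was below the olfactory reference, so the size of its drop is bounded by background and no fold is given. Nkd1, the Dishevelled-binding feedback inhibitor, was 5.94, 6.09 and 5.80 in EGFNWR and 4.60, 5.09 and 4.91 in ER. It differed by -1.08 (SE 0.14, interval -1.41 to -0.74, limma adjusted p = 0.00473), with no overlap. It stayed above the olfactory reference on all 13 arrays.

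Ascl2, a basic helix-loop-helix factor of Wnt-driven stem cells in the intestine, was also lower in ER. Its level was 8.30, 8.23 and 8.04 in EGFNWR and 4.79, 6.22 and 4.36 in ER. The EGFNWR arrays lay close together, and ER b lay between them and the other ER arrays. The difference was -3.07 (SE 0.42, interval -4.06 to -2.08, limma adjusted p = 0.00495). Ascl2 lay below the olfactory reference on ER c, so the size of its drop is also bounded by background. Sp5, a zinc finger factor induced directly by beta-catenin in many tissues, was 6.29, 6.38 and 5.61 in EGFNWR and 5.01, 5.41 and 4.47 in ER. It differed by -1.13 (SE 0.28, interval -1.78 to -0.48, limma adjusted p = 0.029), and the groups did not overlap. On ER c Sp5 lay below the olfactory reference too, so the size of its drop is likewise bounded by background. The Sp5 call was lost without EGFNWR a (adjusted p = 0.108), EGFNWR b (0.104), ER a (0.0814) or ER c (0.0627), and when every probeset was tested (0.0597). With the replicate letter as a block its adjusted p was 0.00301.

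**Figure D2:**
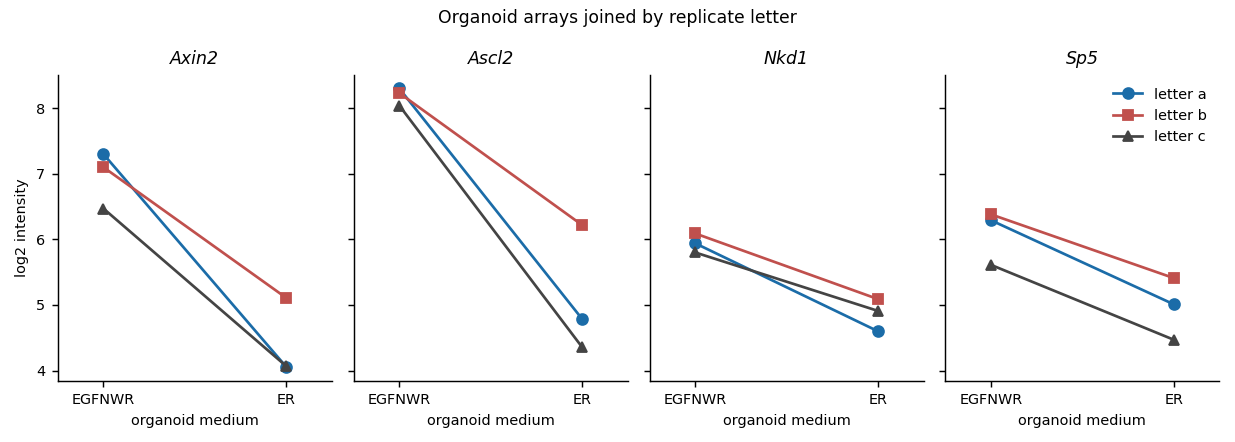
Log2 intensity of Axin2, Ascl2, Nkd1 and Sp5 in EGFNWR and ER organoids, with lines joining arrays of the same replicate letter. All 12 lines fall, and letter b ends highest in ER for each gene.

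Within the ER group, array b was the highest for each of the 4 genes. By letter, Ascl2 differed by -3.51, -2.01 and -3.68 between media for a, b and c, and Axin2 by -3.24, -1.99 and -2.40. Array b was not special to these genes: it was the ER array nearest to EGFNWR for 79.5% of the 1899 genes that were lower in ER. Without ER b the same number of the genes, 4, was lower, and Ascl2 and Axin2 then differed by -3.62 and -2.89.

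The other 4 measured genes were dim in organoids. Notum, the secreted Wnt deacylase, was 4.33, 4.47 and 4.43 in EGFNWR and 4.19, 4.10 and 4.54 in ER. Its difference of -0.13 had an interval of -0.43 to 0.17, and a second, dimmer Notum probeset lay between 3.75 and 4.04 in organoids. Lef1, the HMG-box partner of beta-catenin, was 4.37, 4.31 and 4.52 in EGFNWR and 4.15, 4.22 and 4.41 in ER. Its difference of -0.14 (interval -0.39 to 0.11) and that of Notum lay among levels below the array medians. Apcdd1 differed by 0.13 (interval -0.09 to 0.34), with 4.57 to 4.68 in EGFNWR and 4.64 to 4.85 in ER. Prox1, a homeobox factor of lymphatic endothelium and of some gut endocrine and tuft cells, was 4.15, 3.93 and 4.17 in EGFNWR and 3.74, 3.89 and 3.80 in ER. Its groups did not overlap (18.2% of all genes were lower without overlap), yet all 6 values were below the olfactory reference and the difference of -0.27 did not pass (limma adjusted p = 0.106). For Notum, Lef1 and Prox1 a change that stays below background would not show, whereas Apcdd1 lay above the olfactory reference on all 6 organoid arrays.

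The rest of the pathway was read from lists of other Wnt targets, receptors, nuclear partners and destruction complex genes. Of 29 other Wnt targets measured 10 were lower in ER and 0 higher, with a median of -0.23. The 4 widest of them were the Rspondin receptor Lgr5 at -4.21 (SE 0.84), the cell cycle gene Cdca7 at -2.44 (SE 0.33), the adhesion receptor Cd44 at -2.36 (SE 0.50) and Troy itself, Tnfrsf19, at -2.31 (SE 0.34). Of 18 Wnt and Rspondin receptors 4 were lower, Lgr5 again, the Wnt receptors Fzd2 (-2.22, SE 0.24) and Fzd3 (-0.79, SE 0.17), and the kinase-like receptor Ror2 (-1.42, SE 0.15), while Fzd5 was higher (1.18, SE 0.18). Of 18 nuclear partners the corepressor Tle1 was lower (-0.68, SE 0.14) and Ctnnbip1, an inhibitor of the beta-catenin and TCF contact, was higher (0.64, SE 0.14). Of 15 destruction complex and Dishevelled genes only Dvl1 passed, with 0.58 (SE 0.12). The median was 0.10 for nuclear partners, 0.02 for the destruction complex and -0.01 for receptors. When each organoid array was left out in turn, 8 to 11 other targets and 2 to 4 receptors were lower; the receptor count was 2 without EGFNWR a, and 3 receptors were higher without ER b. With the replicate block, 3 receptors were higher and 3 nuclear partners lower. Tle1 lost its call without EGFNWR a, EGFNWR b or ER a, and Ctnnbip1 without EGFNWR a or b. Dvl1 lost it without EGFNWR a or ER a.

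**Figure D3:**
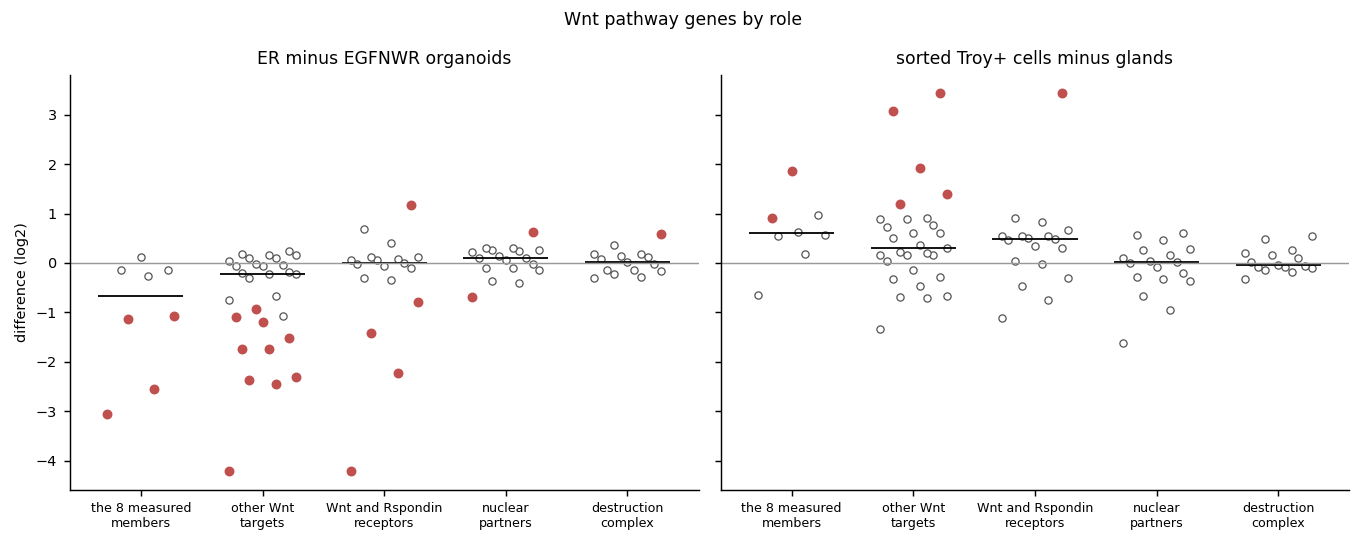
Log2 differences of the 8 genes and of other Wnt pathway genes by role, for ER minus EGFNWR organoids (left) and sorted Troy-positive cells minus glands (right). Filled points passed limma's adjusted p of 0.05, open points did not, and black lines are medians. Some targets stand in a second list too: Lgr5 and Fzd7 with the receptors, Axin1 with the destruction complex, and Tcf7l1 and Tcf7l2 with the nuclear partners. Filled points fall below 0 on the left for the members and other targets and above 0 on the right.

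Lists for the withdrawn Noggin and FGF10, but none for gastrin, and lists of other cell types were read in the same comparison. Over all genes 9.14% were higher in ER and 10.1% lower. The median difference was 0.15 for BMP targets and -0.125 for FGF and MAPK feedback genes. Of 12 BMP targets, which Noggin would hold down, Smad7 (0.95, SE 0.11) and Id1 (0.49, SE 0.13) were higher in ER; the count was 1 in each fit without 1 array, except without EGFNWR c, where it was 3. Of 12 FGF and MAPK feedback genes 2 were higher, among them Dusp5 (1.52, SE 0.17), and 2 lower, among them the FGF-induced factor Etv5 (-1.69, SE 0.21); 1 was lower without ER a, and 4 were with the replicate block. All 17 measured proliferation genes were lower, with Ccna2 at -2.18 (SE 0.34) and Mki67 at -2.12 (SE 0.35), and their mean level was 8.45 to 8.73 in EGFNWR and 6.54 to 7.48 in ER. Birc5 of this list, and Jun below, also counted among the other Wnt targets lower in ER. Of 5 mucous neck genes 4 were lower, the mucin Muc6 by -4.31 (SE 1.01) and A4gnt by -3.78 (SE 0.69), and the remaining one, Tff2, was higher (1.99, SE 0.48). Tff2 kept its call only without EGFNWR c when arrays were left out. Of 10 chief cell genes 4 were lower and 0 higher, led by Cblif, the gastric intrinsic factor (-4.53, SE 1.20), and the pepsinogen gene Pgc (-3.38, SE 0.64). That count was 1 without EGFNWR a, 3 without ER b and 2 without each of the other 4 arrays. Of 17 immediate early genes 8 were higher, led by Klf6 (1.09, SE 0.12) and Ier3 (1.03, SE 0.12), and Jun was lower (-0.93, SE 0.14). Of 10 pit cell genes 8 were higher, the mucin Muc5ac by 3.82 (SE 0.79) and the gastrokine Gkn1 by 3.69 (SE 0.63), and 2 to 7 were when an array was left out: 2 without EGFNWR a, 3 without EGFNWR b, 2 without ER a and 4 without ER c. The part of these lists in the fall of Axin2, Ascl2, Nkd1 and Sp5 was not tested.

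The second question was how the genes relate to the Troy sort. With both sorted cell types weighted equally against glands, Axin2 and Sp5 were higher in the sorted cells and 0 of the 8 were lower, against 0.303% of all genes higher and 1.46% lower. The median difference of the 8 genes was 0.60 and that of all genes 0.10. The values of 5 genes lay above both gland arrays in all 5 sorted arrays, namely Axin2, Ascl2, Nkd1, Sp5 and Notum, as they did for 12.7% of all genes. Prox1 lay below both, as did 11.2% of all genes. In the same comparison 2 of 10 pit cell genes were lower, Capn9 (-3.94, SE 0.71) and Foxq1 (-2.49, SE 0.47), with a list median of -2.25 and a mean level of 9.14 to 10.69 in sorted cells and 11.05 to 11.89 in glands. The pit count was 7 without chief a, 3 without chief c and 0 without glands b, parietal a or parietal b. The median of 17 proliferation genes was -1.55 with 0 called, and their mean level was 6.47 to 8.03 in chief cells, 6.02 to 6.06 in parietal cells and 8.06 to 8.26 in glands. Leaving out a chief array gave 1 (a), 8 (b) or 12 (c) proliferation genes lower. The part of these lists in the values of the 8 genes was not tested.

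Axin2 was 6.98, 7.10 and 6.20 in chief cells, 6.75 and 6.30 in parietal cells, and 5.25 and 4.30 in glands. Every sorted array stood above both gland arrays and above its own olfactory reference. The difference was 1.87 (SE 0.34, interval 1.08 to 2.65, limma adjusted p = 0.0438). On glands b Axin2 lay below the olfactory reference, so this size too is bounded by background. Leaving out 1 array ended the call for chief a (adjusted p = 0.0563), chief b (0.0501), both parietal arrays in turn (0.192 for a and 0.161 for b) and glands b (0.433), but not for chief c or glands a. Sp5 was 5.40, 5.50 and 5.35 in chief cells, 5.50 and 5.23 in parietal cells, and 4.48 and 4.50 in glands. The sorted values were tightly grouped and differed from glands by 0.90 (SE 0.16, interval 0.53 to 1.27, limma adjusted p = 0.0416). On glands a, chief c and parietal b, Sp5 lay below the olfactory reference, which was raised on 4 of the 5 sorted arrays. On chief a the reference of 4.47 lay between those of glands a and b, and Sp5 was 5.40. Chief a was also the sorted array that correlated most closely with both gland arrays. The Sp5 call was lost without parietal a (adjusted p = 0.187), parietal b (0.152), glands a (0.132) or glands b (0.385), and with repeated quantile normalization (0.0533) or a trended prior (0.0535). With every probeset tested, Axin2 had an adjusted p of 0.0815 and Sp5 of 0.0683.

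Nkd1 was 6.93, 6.91 and 5.84 in chief cells, 5.92 and 5.62 in parietal cells, and 5.12 and 5.27 in glands. It differed by 0.97 (SE 0.31) between sorted cells and glands and did not pass (limma adjusted p = 0.158), but passed without chief c (0.0175). Ascl2 was 5.57, 5.78 and 5.12 in chief cells, 4.64 and 4.65 in parietal cells, and 4.41 and 4.59 in glands. Chief cells were the brightest of these groups, and the parietal values stood just above glands while below the parietal arrays' olfactory reference. Its difference of 0.57 (SE 0.21) did not pass (limma adjusted p = 0.198). Notum differed by 0.63 (SE 0.23, limma adjusted p = 0.194), with 4.40 to 4.89 in chief cells, 4.59 and 5.04 in parietal cells, and 3.86 and 4.34 in glands. All 5 sorted values of Notum were below their arrays' olfactory reference. On the second, dimmer Notum probeset the groups overlapped, with 3.83 to 4.21 in sorted cells and 3.95 and 4.01 in glands. Lef1 was 4.50 to 4.63 in chief cells, 4.66 and 4.78 in parietal cells, and 4.55 and 4.40 in glands. Its difference of 0.18 (interval -0.18 to 0.54) was smaller than the olfactory genes' 0.43. The mean of 13 T cell genes, a lineage in which Lef1 is active, was between 3.73 and 4.21 on all 13 arrays.

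**Figure D4:**
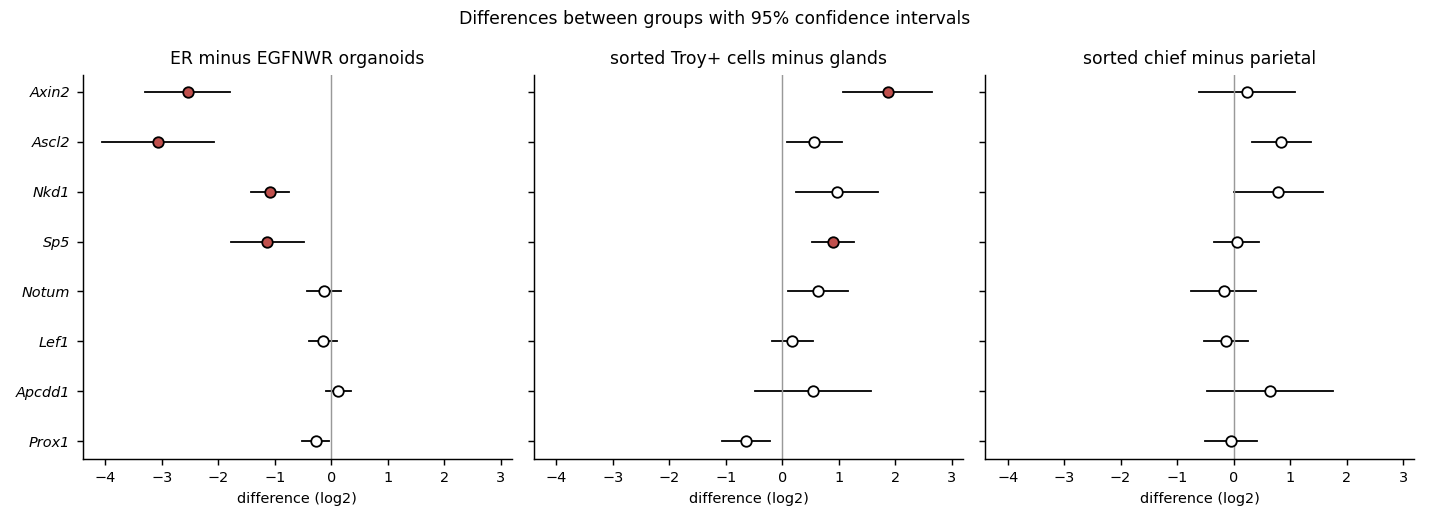
Log2 differences of the 8 genes with 95% confidence intervals from limma, for ER minus EGFNWR organoids, sorted Troy-positive cells minus glands, and sorted chief minus sorted parietal cells. Filled points passed the adjusted p of 0.05: 4 genes on the left, 2 in the middle and 0 on the right.

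Against glands, with each cell type taken on its own, no gene of the 8 passed. In chief cells 0.128% of all genes were higher and 0.351% lower than in glands, and in parietal cells 0.228% and 1.38%. Both comparisons use the same 2 gland arrays. Values of 6 genes stood above both gland arrays in all chief arrays and 1 below, where 16.3% and 15.1% of all genes did. In the parietal arrays 6 stood above and 1 below, where 41.6% and 24.8% of all genes did. Axin2 differed by 1.99 (SE 0.37, limma adjusted p = 0.0738) in chief and 1.75 (SE 0.40, adjusted p = 0.0726) in parietal cells. Sp5 differed by 0.93 (SE 0.17, limma adjusted p = 0.0761) and 0.88 (SE 0.19, adjusted p = 0.0657). Nkd1 differed by 1.37 (SE 0.34) in chief and 0.58 (SE 0.37) in parietal cells, and Ascl2 by 0.99 (SE 0.23) and 0.15 (SE 0.25). Without chief c, Axin2, Nkd1 and Ascl2 passed in chief cells (limma adjusted p = 0.039, 0.0187 and 0.0444), and Axin2 and Sp5 in parietal cells (0.0268 and 0.0371). Without glands a, Axin2 passed in chief cells (limma adjusted p = 0.0452).

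Chief and parietal cells were then compared with each other. No gene of the 8 passed limma, and 0% of all genes did in either direction, although 2279 of 18820 had an unadjusted p under 0.05. Ascl2 was higher in every chief array than in both parietal arrays, as 10.9% of all genes were, with a difference of 0.85 (SE 0.23, interval 0.32 to 1.37, limma adjusted p = 0.348). On chief c and on both parietal arrays Ascl2 lay below the olfactory reference. Nkd1 differed by 0.79 (SE 0.34, interval 0.01 to 1.57, limma adjusted p = 0.41), with chief c at 5.84 inside the parietal range of 5.62 to 5.92. Without chief c, the array closest to the parietal arrays, both passed, with 1.03 for Ascl2 (limma adjusted p = 0.0235) and 1.15 for Nkd1 (adjusted p = 0.0188). Axin2 differed by 0.24 (interval -0.62 to 1.09) and Sp5 by 0.05 (interval -0.35 to 0.45). Lef1 was lower in every chief array than in the parietal arrays, as 19.2% of all genes were, by a difference of -0.14 (SE 0.17).

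In the first experiment, Apcdd1 and Prox1 were high on the arrays where a marker list of another cell type was high. Apcdd1 was 5.07, 6.65 and 4.91 on chief arrays a, b and c, 4.99 and 4.81 in parietal cells and 4.86 and 4.51 in glands, so that only chief b stood out. The mean of 10 squamous epithelium genes was 7.52 on chief b and between 4.16 and 5.21 on the other 12 arrays, with the basal keratin Krt5 at 11.85 on chief b against 4.18 to 6.37 elsewhere, and its partner Krt14 at 10.04 against 5.09 to 6.04. Krt13 (8.09), Krt15 (8.63), Trp63 (8.33) and Dsg3 (7.84) of the list were also highest on chief b. Others were not raised in that way: Krt6a was 4.39 and Lor 4.32 on chief b. Krt4 at 6.95 on chief b lay below every organoid array. Means of other lists were highest on chief b too. Among them, stroma genes stood at 5.07 against 4.15 to 4.69 elsewhere, mucous neck genes at 11.32 and immediate early genes at 10.26. Apcdd1 differed by 0.54 (SE 0.44) between sorted cells and glands, and by 0.26 without chief b. Prox1 was 5.22 and 4.78 in glands, 4.24, 4.27 and 4.49 in chief cells, and 4.36 and 4.41 in parietal cells. It stood above the olfactory reference on both gland arrays and on no other array. Its difference between sorted cells and glands was -0.64 (SE 0.18, limma adjusted p = 0.125). The mean of 9 tuft cell genes was 6.02 and 6.39 in glands and 4.48 to 4.76 in sorted cells, with 5 of them lower in sorted cells, among them Rgs13 (-3.51, SE 0.20) and Dclk1 (-2.47, SE 0.21). In organoids the tuft mean was 5.11 to 5.61, above that of sorted cells, while Prox1 was lower there than in sorted cells. The tuft count was 1 without glands b and 2 without parietal a or parietal b. The mean of 13 enteroendocrine genes was 6.97 to 6.98 in glands and 6.20 to 6.75 in sorted cells, with Hdc (-2.31, SE 0.30) and Sst (-1.92, SE 0.24) lower; both calls were lost without parietal a or b. Lymphatic endothelium genes, of which Prox1 is the defining factor, had a mean of 5.03 to 5.12 in glands and 4.92 to 5.20 in sorted cells. The part of squamous, stromal or other cells in Apcdd1 and of tuft and endocrine cells in Prox1 was not tested.

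**Figure D5:**
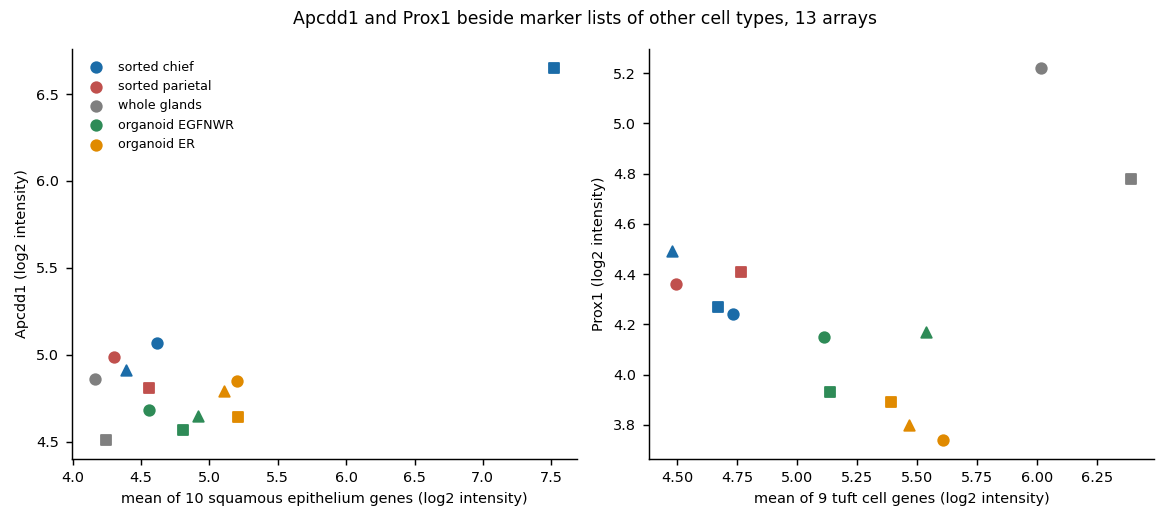
Apcdd1 against the mean of 10 squamous epithelium genes (left) and Prox1 against the mean of 9 tuft cell genes (right) on 13 arrays, log2 intensity on both axes, with circle, square and triangle for replicates a, b and c. Chief b alone is high on the left at 6.65, and the gland arrays are highest on the right at 5.22 and 4.78.

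Of the other Wnt targets, 5 of 29 were higher in sorted cells than in glands and 0 lower, with a median of 0.29. They included Lgr5 (3.43, SE 0.43), Tnfrsf19 (3.08, SE 0.31), the gene sorted on, Jun (1.92, SE 0.29) and the matricellular gene Smoc2 (1.39, SE 0.23). The count was 2 without glands a and 0 without glands b, parietal a or parietal b. Of the 18 receptors Lgr5 alone passed (not without glands b, parietal a or parietal b; 3 receptors did without chief c), and 0 of 18 nuclear partners and 0 of 15 destruction complex genes did. Jun also belongs to the immediate early genes, of which 8 of 17 were higher in sorted cells, led by Atf3 (4.57, SE 0.21) and Fosb (4.40, SE 0.55), and whose mean was 8.38 to 10.26 in sorted cells and 7.24 to 7.34 in glands. That count was 4 without glands a, 2 without glands b and 3 without parietal a or parietal b. Trypsin and sorting were steps of the sorted arrays only, so their part and that of cell type cannot be told apart.

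Across the 5 groups, Axin2 was brightest in EGFNWR organoids (mean 6.96), then in chief (6.76) and parietal cells (6.53), glands (4.78) and ER organoids (4.41). Neighbours in that order overlapped except parietal cells and glands. Ascl2 stood at 8.19 in EGFNWR organoids, with no overlap with any other group, and then at 5.49 in chief cells, 5.12 in ER organoids, 4.65 in parietal cells and 4.50 in glands. Chief cells and ER organoids overlapped, as did ER organoids and parietal cells. Nkd1 had another order, brightest in chief cells (6.56) and then in EGFNWR organoids (5.94), parietal cells (5.77), glands (5.20) and ER organoids (4.87), with overlap among the first 3 groups. Sp5 went from EGFNWR organoids (6.09) through chief (5.42) and parietal cells (5.37) and ER organoids (4.96) to glands (4.49), and only its first step had no overlap. For Prox1 the order was glands (5.00), parietal (4.39) and chief cells (4.33), EGFNWR (4.08) and ER organoids (3.81). The group means of Notum spanned 0.72, those of Lef1 0.46 and those of Apcdd1 0.91.

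Genes with the most similar profile were sought for the 5 genes whose group means spanned at least 1, by the root mean square (RMS) difference between centred log2 values over the 13 arrays, among 10437 genes at or above the median brightness. Closest to Axin2, whose own SD over the arrays was 1.16, was Ccnjl with an RMS difference of 0.41. Ppp2r2b followed with 0.44 and Tspan12 with 0.49. Ccnjl had means of 7.37 in EGFNWR and 4.51 in ER organoids and of 6.53, 6.24 and 4.30 in chief cells, parietal cells and glands. For Ascl2 (SD 1.44) the closest were Gprc5b with 0.34, Hunk with 0.43 and Cyria with 0.44. Gprc5b had a mean of 7.89 in EGFNWR organoids and of 4.76 to 5.20 in the other groups. Nkd1 (SD 0.68) was closest to Syvn1 (0.27), Adamts10 (0.28) and Map3k12 (0.28), Sp5 (SD 0.58) to Zbtb38 (0.24), Paqr3 (0.24) and Mcrip1 (0.25), and Prox1 (SD 0.39) to Gnao1 (0.19), A730017L22Rik (0.21) and Mpdu1 (0.21). Among the 8 genes themselves, the one closest to Axin2 was Nkd1, at 0.68, farther than these 3 neighbours.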

How the data were processed

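RNA of 13 samples was hybridised to 1 Affymetrix array each. The authors deposited log2 values for 35556 probesets, made with RMA and Affymetrix Power Tools per the submitters' processing notes; the sources used here give no versions or background settings. RMA gives arrays nearly equal distributions, so a shift shared by most genes would not show. Per the platform annotation 21218 probesets had 1 gene symbol, 1881 several and 12457 none. For each of 18820 genes the brightest single-symbol probeset was used, by its mean in the arrays fitted.

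Groups followed the titles. The 7 arrays of the first experiment and the 6 organoid arrays were fitted separately by limma 3.58.1 under R 4.3.3 (lmFit, eBayes), Benjamini-Hochberg adjusted over all genes, threshold 0.05, no block. P-values measure the spread between arrays, which may be technical for the organoids. The number of arrays limits precision. The fits were also run on simulated data with independent noise and planted changes. Those data held no raised background and no outlying array, so the run does not bear on either.

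The members and lists were chosen with earlier results of these data known. Named genes are all members, the 4 widest called genes of each Wnt list per comparison and the 2 widest of other lists. Fzd3 and the squamous genes named were added after their values were seen. Lists with 0 calls between sorted cells and glands included T cell, leukocyte, stroma and endothelium genes; in organoids these 4 lists had 0, 1, 0 and 0 higher and 0, 1, 1 and 0 lower.

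The main organoid fit has no block, and the fit with the replicate letter as a block is an alternative. Organoid letters were taken as pairs, so its values are given where a call or count moved: deviations from group means correlated at 0.136, 0.169 and 0.333 for equal letters, a pairing the labels do not state; EGFNWR b with ER a gave 0.171.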

Additional observations from a re-analysis of the deposited data

How the results depend on the processing

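The fall of Axin2, Ascl2 and Nkd1 in ER organoids passed limma under all 15 alternatives, and that of Sp5 under 10. Of the 8 genes 4 were lower in ER in each alternative that kept all arrays except with every probeset tested, where 3 were, and 3 to 4 were when each array was left out. The replicate block changed no organoid call among the 8 genes, and took the other Wnt targets lower in ER from 10 to 12. The calls against glands were less settled. Between sorted cells and glands, 2 genes passed; 1 did with repeated quantile normalization, 1 with dim genes left out (where only 2 of the 8 were tested), 1 with a trended and robust prior, 4 with all 13 arrays in one fit, 3 with the replicate block and 0 with every probeset tested, and 0 to 3 when an array was left out. In chief cells against glands 3 passed with all 13 arrays, 2 with the replicate block and 0 to 3 without an array. In parietal cells against glands 3 passed with array weights, 2 with all 13 arrays, 2 with the block and 0 to 2 without an array. Between chief and parietal cells 2 passed with the block, in which chief c drops out, and 0 to 2 without an array. With all 13 arrays in one fit, the genes passing in sorted cells, in chief cells and in parietal cells against glands each time included Prox1, which was lower than in glands. Prox1 was also among those passing, as lower, in parietal cells with array weights. The others passing in these fits were higher. Letters were not taken as pairs in the first experiment: chief and parietal arrays of equal letter had deviations correlated at 0.226 and 0.106, but the correlations were -0.340 and -0.113 between chief and gland arrays and -0.032 between parietal and gland arrays. Where a group was left with 1 array, that array was assumed to vary like the others; why these calls moved was not tested.

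Signs turned for Lef1 in chief cells against glands with repeated quantile normalization (-0.036), and between chief and parietal cells for Sp5 with quantile normalization (-0.034), with median centring (-0.022) and without parietal b (-0.083, in a leave-one-out range up to 0.19), and for Notum without parietal b (0.05, in a range from -0.40). None of these had passed.

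Over all genes, calls between media fell from 3620 to 1705 with all 13 arrays in one fit, and ranged from 1902 to 3517 when an array was left out. Calls for sorted cells against glands (331) became 1441 with array weights, 2333 with all 13 arrays, 204 over every probeset and 733 with the block, and 19 to 696 without an array. For chief cells (90) these were 147, 1215, 52 and 224, and 17 to 440; for parietal cells (303) they were 3201, 2707, 66 and 1602, and 2 to 1410, with 134 after quantile normalization. Chief against parietal cells went from 0 to 166 with all 13 arrays, 1658 with the block and 1317 without chief c. Slide and scan date are not in the files used here, so no such block was run.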
